A study of Homo sapiens with 4 samples.

Results

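Fatty acid and triglyceride synthesis was followed through 32 genes, chosen by name, in HepG2 cells depleted of the histone demethylase LSD1. HepG2 is an established human hepatoma line, and the study asked what LSD1 does for metabolism in hepatic cancer cells. A gene was read through every probe set whose platform annotation names that gene alone. This gave 65 probe sets for 29 of the 32 genes, among 19775 genes measured in all. ELOVL1 and FADS1 are read only by probe sets that also name a microRNA, and AGPAT3 by none that is named here, so these 3 were not analysed. The members were taken by role as precursor supply (5 measured), malonyl-CoA and palmitate synthesis (4), transcription factors (2), elongation (4), desaturation (4) and esterification (10).

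The 4 samples were total RNA of HepG2 cells, labelled with biotin and read on HG-U133 Plus 2.0 arrays. Culture was in DMEM (25 mM glucose, 10% serum) for every group; the cells received siRNA at about 50% confluence and were harvested after 4 days. The 2 control arrays carried RNA of cells given an siRNA against GL3. The 2 knockdown arrays carried RNA of cells given siRNA-1 or siRNA-2 against LSD1, so each LSD1 siRNA was read on 1 array. Separate cultures are not stated in the labels, so p-values reflect array-to-array spread that may be purely technical. The deposited RMA values are read here as log2, and within each probe set they had been centred on the median of the 4 arrays. A value of 1 therefore means 2-fold above that median, levels cannot be compared between genes, and all differences below are on the log2 scale.

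Liver cells build fatty acids from acetyl-CoA. Citrate leaves the mitochondrion and is cleaved to acetyl-CoA in the cytosol, acetyl-CoA carboxylase turns this into malonyl-CoA, and fatty acid synthase joins malonyl-CoA units to palmitate. Elongases and desaturases then lengthen and unsaturate the chain, and acyltransferases place the acyl groups on a glycerol backbone to give triglyceride. The transcription factors SREBP-1c, a product of SREBF1 that responds to insulin and sterols, and ChREBP, the product of MLXIPL that responds to glucose, are known drivers of these genes in liver.

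KDM1A, the gene that encodes LSD1, was at 1.23 and 1.17 in the controls; it was at -1.55 with siRNA-1 and at -1.17 with siRNA-2. By limma its difference passed with siRNA-2 (adjusted p = 0.014) and missed the threshold with siRNA-1 (0.077) and over both (0.0937). The siRNA-2 array stood apart, with an SD of 0.384 over probe sets against 0.197 with siRNA-1 and 0.164 and 0.154 on the controls, so results are given for each siRNA as well as for both. Other measures moved with the knockdown. The spike-in controls for hybridization, added at constant amounts, were 1.28 higher on the knockdown arrays. The 5' probe set of ACTB was lower there relative to its 3' probe set (difference of -0.61), and for GAPDH this difference was smaller (-0.175). All 9 hepatocyte markers measured had bright probe sets, and 8 lay above both controls on both knockdown arrays, where 23.9% of all genes did. The median difference of the 9 was 0.24 (siRNA-1) and 0.46 (siRNA-2). Of 24 markers of fibroblasts, endothelium, leukocytes, bile duct and fat cells, 11 had dim probe sets, and the leukocyte marker PTPRC and the fat cell marker ADIPOQ were among the dim. Of the 24, 8 lay above both controls on both knockdown arrays and 3 below, where 23.9% of all genes lay above and 25.4% below. The bright leukocyte marker CD14 was at 0.41 on the siRNA-1 array and 1.23 on the siRNA-2 array. The part of these measures in the results was not tested.

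To show what precedes genes that behaved differently, the 250 bases before a RefSeq start (GRCh38.p14, 5′ to 3′ in the direction of the gene) are printed for 6 members. ACSS2 had the largest difference with siRNA-2, ELOVL6 and SCD stand for elongation and desaturation, MLXIPL is a regulator that was high with both siRNAs, and FADS3 is a desaturase gene that went the other way. Among the 26 members with a promoter in the table, MID1IP1 alone matched the sterol regulatory element. Capitals mark matches, on either strand, to the GC box (GGGCGG), the inverted CCAAT box (ATTGG) and the sterol regulatory element (TCACNCCAC).
ACSS2, chr20:34876362-34876611, plus strand: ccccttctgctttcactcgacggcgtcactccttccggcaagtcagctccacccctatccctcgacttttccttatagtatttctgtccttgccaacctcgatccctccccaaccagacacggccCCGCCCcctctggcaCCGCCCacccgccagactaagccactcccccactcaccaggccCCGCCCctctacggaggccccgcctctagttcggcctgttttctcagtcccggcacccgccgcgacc
ELOVL6, chr4:110198616-110198865, minus strand: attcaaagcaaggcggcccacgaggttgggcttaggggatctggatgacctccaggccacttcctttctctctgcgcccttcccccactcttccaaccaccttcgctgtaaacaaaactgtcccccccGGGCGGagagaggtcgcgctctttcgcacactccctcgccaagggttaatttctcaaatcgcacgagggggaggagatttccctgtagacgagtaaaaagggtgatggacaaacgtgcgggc
SCD, chr10:100346983-100347232, plus strand: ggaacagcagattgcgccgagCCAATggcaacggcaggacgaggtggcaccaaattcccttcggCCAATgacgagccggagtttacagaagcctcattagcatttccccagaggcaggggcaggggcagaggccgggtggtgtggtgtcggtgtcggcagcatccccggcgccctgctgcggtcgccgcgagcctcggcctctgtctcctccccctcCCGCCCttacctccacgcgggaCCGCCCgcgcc
MLXIPL, chr7:73624523-73624772, minus strand: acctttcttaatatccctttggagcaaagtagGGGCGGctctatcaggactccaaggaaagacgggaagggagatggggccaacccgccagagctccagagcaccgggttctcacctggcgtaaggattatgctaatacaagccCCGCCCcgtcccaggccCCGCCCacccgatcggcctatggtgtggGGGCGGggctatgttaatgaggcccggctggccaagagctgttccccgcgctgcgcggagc
FADS3, chr11:61891546-61891795, minus strand: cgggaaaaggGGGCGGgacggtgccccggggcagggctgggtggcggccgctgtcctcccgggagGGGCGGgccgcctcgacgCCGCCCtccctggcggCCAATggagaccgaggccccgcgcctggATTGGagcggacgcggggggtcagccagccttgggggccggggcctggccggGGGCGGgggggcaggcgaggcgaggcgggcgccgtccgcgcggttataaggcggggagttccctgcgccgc
MID1IP1, chrX:38801209-38801458, plus strand: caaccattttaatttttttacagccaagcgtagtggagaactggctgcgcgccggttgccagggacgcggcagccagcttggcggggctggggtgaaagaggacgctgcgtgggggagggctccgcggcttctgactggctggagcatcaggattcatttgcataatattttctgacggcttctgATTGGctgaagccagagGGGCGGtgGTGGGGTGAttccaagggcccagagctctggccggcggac

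The RefSeq table held 40 start sites for 26 of the 32 genes, and some windows of 1 gene overlap. FASN, PNPLA3, DGAT1, DGAT2, MOGAT2 and LPIN3 were not searched. The GC box, which SP1 can bind, was in 31 of these windows (77.5%), against 42.6% of all 35116 windows of the same length. The inverted CCAAT box, which NF-Y can bind, was in 17 (42.5%), against 11240 of the 35116. The sterol regulatory element, the site of SREBP, was in 1 window (2.5%, against 0.883%), 40 to 32 bases before the start of MID1IP1. The E-box CACGTG was in 2 windows (5.0%, against 6.34%), those of ELOVL5 and LPIN2, and the TATA box TATAAA in 1 of AGPAT1 (2.5%, against 10.7%). The carbohydrate response element of ChREBP and the DR4 element of LXR were in 0 of the 40, against 0.00285% and 0.0142%. These counts describe letters in a short window, and no binding was measured.

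With both knockdown arrays set against both controls, no member passed the limma test over all genes (0 of 29, against 0.00506% of all genes called). The smallest adjusted p among members was 0.195, and 4 members were higher and 1 lower at an unadjusted p under 0.05, against 14.8% of all genes in either direction. The direction was more uniform than the test. On both knockdown arrays 21 members lay above both controls, where 23.9% of all genes did, and 2 lay below both, where 25.4% of all genes did. The median difference over members was 0.45, against -0.0031 over all genes. It was 0.23 over the 19 members left without _s_at and _x_at probe sets, 0.19 without the siRNA-2 array and 0.75 without the siRNA-1 array.

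The siRNAs differed in size. With siRNA-2, 19 of the 29 members rose and 1 fell (limma, adjusted p under 0.05 over all genes), where 14.2% of all genes rose and 10.7% fell. The 19 differences ran from 0.38 to 2.14 with a median of 1.002, and 10 members were at least 2-fold higher, as were 4.03% of all genes, while 0 members (2.19% of all genes) were at least 2-fold lower. With siRNA-1 no member passed (0.0% of all genes did), and 11 were higher and 1 lower at an unadjusted p under 0.05, where 27.3% of all genes were in either direction. None was 2-fold higher with siRNA-1 (0 of 29, against 0.971% of all genes). Leaving out dim genes, or setting array medians to 0, called some members higher with siRNA-1. The share of all genes called under those settings is not given here. For the same 19 members the siRNA-1 median was 0.19. These calls take the spread from the 2 controls and assume that a lone knockdown array varies like them. With the spread pooled over control and knockdown arrays, or after quantile normalization of the deposited values, 0 members were called with siRNA-2. The pooled spread includes the gap between the siRNAs. Quantile normalization of centred values gives all 4 arrays the same distribution. Over genes, this narrows the wide siRNA-2 array and widens the controls. The effect of quantile normalization on the gap between the controls, gene by gene, was not measured.

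**Figure D1:**
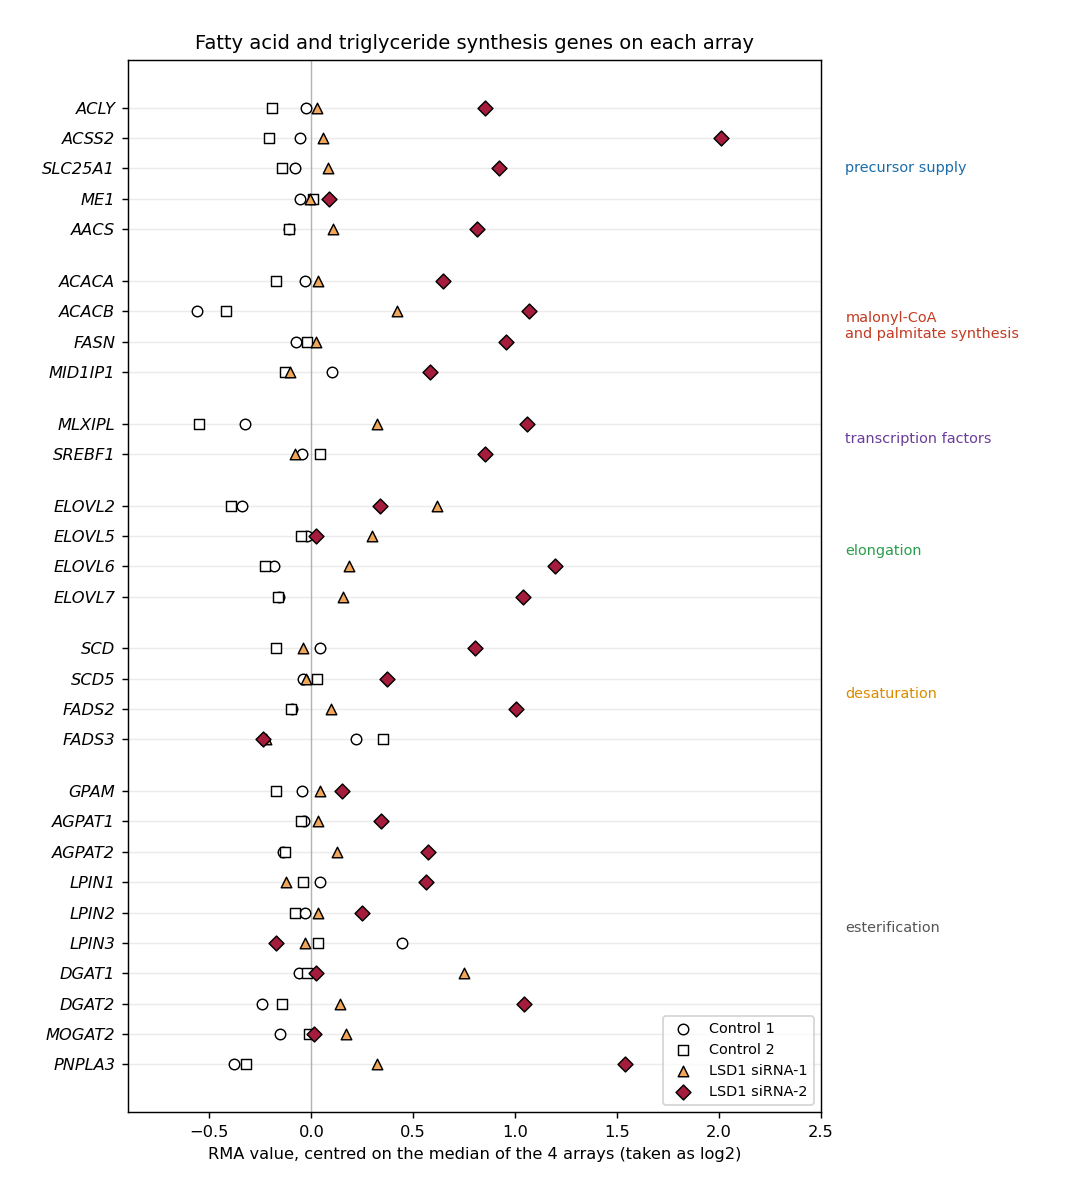
Centred RMA value (x axis, taken as log2) of the 29 measured members, 1 row per gene grouped by role, with open symbols for the 2 control arrays, triangles for siRNA-1 and diamonds for siRNA-2. The siRNA-2 diamond lies to the right of both controls for 27 members, while the siRNA-1 triangle is near the controls for most, with ACACB, MLXIPL, ELOVL2, DGAT1 and PNPLA3 to their right and FADS3 to their left.

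Among the genes of precursor supply, 4 of 5 rose with siRNA-2, where 14.2% of all genes rose. ACSS2, which activates acetate to acetyl-CoA in cytosol and nucleus, read -0.06 and -0.21 on the controls, 0.06 under siRNA-1 and 2.01 under siRNA-2. It has 1 probe set, of the _s_at design. The siRNA-1 value lay just above the controls, and the siRNA-2 value was 4.41-fold above their mean (2.14 ± 0.10, SE, adjusted p = 0.014 by limma). SLC25A1, the carrier that exports citrate from mitochondria, read -0.08 and -0.14 on the controls, 0.08 under siRNA-1 and 0.92 under siRNA-2, a difference of 1.03 ± 0.07 for the latter. ACLY, which cleaves that citrate, read -0.03 and -0.19 on the controls, 0.03 under siRNA-1 and 0.85 under siRNA-2 (0.96 ± 0.11). The carrier and the enzyme of this step thus had differences of about the same size, both carried by the siRNA-2 array. SLC25A1 is read by 1 probe set and ACLY by 3, all of the _s_at design.

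AACS, which activates acetoacetate for lipid synthesis, read -0.11 and -0.11 on the controls, 0.11 under siRNA-1 and 0.81 under siRNA-2 (0.92 ± 0.07). It too has 1 probe set, of the _s_at design. ME1, the malic enzyme that supplies NADPH, was the exception in this group. It read -0.06 and 0.01 on the controls, -0.01 under siRNA-1 and 0.09 under siRNA-2, so that its groups overlapped. Its difference with siRNA-2 was 0.11 ± 0.07 (adjusted p = 0.347 by limma).

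In malonyl-CoA and palmitate synthesis 3 of 4 genes rose with siRNA-2, where 14.2% of all genes rose. ACACB, the acetyl-CoA carboxylase at mitochondria whose malonyl-CoA restrains fatty acid entry for oxidation, read -0.56 and -0.42 on the controls, 0.42 under siRNA-1 and 1.07 under siRNA-2. Both knockdown arrays were well above both controls, with differences of 0.91 ± 0.10 for siRNA-1 and 1.56 ± 0.10 for siRNA-2. FASN, the fatty acid synthase, read -0.08 and -0.02 on the controls, 0.02 under siRNA-1 and 0.95 under siRNA-2. Its difference was 0.07 ± 0.07 under siRNA-1 and 1.002 ± 0.07 under siRNA-2, so that the siRNA-1 array was close to the controls. A second FASN probe set, of the middle class and the _x_at design, differed by 0.21 with siRNA-1 and by -0.22 with siRNA-2. The mean of both probe sets gave 0.27 over the siRNAs, against 0.54 for the one used.

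ACACA, the cytosolic carboxylase that feeds FASN, read -0.03 and -0.18 on the controls, 0.03 under siRNA-1 and 0.65 under siRNA-2 (0.75 ± 0.10, adjusted p = 0.0283 by limma). Its second probe set went the other way, at 0.33 and 0.29 on the controls, -0.29 under siRNA-1 and -0.51 under siRNA-2, and the mean of both gave a difference of -0.14 over the 2 siRNAs. MID1IP1, a small protein that promotes polymerization of the carboxylase, read 0.10 and -0.13 on the controls, -0.10 under siRNA-1 and 0.58 under siRNA-2. The siRNA-1 array lay among the controls, and the siRNA-2 difference of 0.59 ± 0.13 did not pass (adjusted p = 0.0681 by limma).

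Both transcription factors rose with siRNA-2, where 14.2% of all genes rose, and their siRNA-1 values are given beside them. MLXIPL read -0.32 and -0.55 on the controls, 0.32 under siRNA-1 and 1.06 under siRNA-2. It lay above both controls with each siRNA, with differences of 0.76 ± 0.13 and 1.495 ± 0.13. MLXIPL has 1 probe set, of the _s_at design. SREBF1 read -0.04 and 0.04 on the controls, -0.08 under siRNA-1 and 0.85 under siRNA-2. It was below both controls with siRNA-1 and above both with siRNA-2, a difference between siRNAs of 0.93 ± 0.09 (adjusted p = 0.0419 by limma). A second SREBF1 probe set of the same brightness class read within the range of -0.10 to 0.06 on all 4 arrays and showed no such step.

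All 4 elongases lay above both controls on both knockdown arrays, where 23.9% of all genes did. With siRNA-2, 3 of them rose, where 14.2% of all genes did. ELOVL6, which takes palmitate to stearate, read -0.18 and -0.23 on the controls, 0.18 under siRNA-1 and 1.20 under siRNA-2. Its differences were 0.39 ± 0.07 and 1.40 ± 0.07, and its other 2 probe sets gave 1.54 and 1.79 with siRNA-2. ELOVL7, which acts on longer saturated chains, read -0.16 and -0.17 on the controls, 0.16 under siRNA-1 and 1.04 under siRNA-2 (1.20 ± 0.07).

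The elongases of polyunsaturated chains had another pattern. ELOVL2 read -0.34 and -0.39 on the controls, 0.62 under siRNA-1 and 0.34 under siRNA-2, with differences of 0.98 ± 0.07 and 0.70 ± 0.07. It was the only member called with siRNA-2 whose siRNA-1 value was higher, apart from FADS3, and the difference between the siRNAs did not pass (-0.28, adjusted p = 0.137 by limma). ELOVL5 read -0.02 and -0.05 on the controls, 0.30 under siRNA-1 and 0.02 under siRNA-2. Its siRNA-2 value was near the controls (0.06 ± 0.07), and a further probe set of the middle brightness class read -0.42 with siRNA-1.

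Among the desaturases, 2 of 4 rose and 1 fell with siRNA-2, where 14.2% of all genes rose and 10.7% fell. SCD, the stearoyl-CoA desaturase that makes oleate, read 0.04 and -0.17 on the controls, -0.04 under siRNA-1 and 0.80 under siRNA-2 (0.87 ± 0.13, adjusted p = 0.033 by limma). The siRNA-1 array lay between the controls. All 4 SCD probe sets were bright, and their siRNA-2 differences ran from 0.87 to 1.20. FADS2, which makes the first double bond in the route from essential fatty acids, read -0.10 and -0.10 on the controls, 0.10 under siRNA-1 and 1.003 under siRNA-2 (1.10 ± 0.07); its dim second probe set gave -0.07.

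FADS3, a paralogue beside FADS2 on the same chromosome, was the only member called lower. It read 0.22 and 0.35 on the controls, -0.22 under siRNA-1 and -0.24 under siRNA-2, so that the arrays of the 2 siRNAs nearly coincided below both controls. The difference was -0.51 ± 0.09 for siRNA-1 and -0.52 ± 0.09 for siRNA-2 (adjusted p = 0.0452 for the latter by limma), and its second probe set gave -0.62 and -0.46. SCD5, a second stearoyl-CoA desaturase, read -0.04 and 0.03 on the controls, -0.03 under siRNA-1 and 0.37 under siRNA-2 (0.38 ± 0.08, adjusted p = 0.0542 by limma). A further SCD5 probe set of the same class was highest with siRNA-1 (0.58) and lowest with siRNA-2 (-0.14).

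Esterification had a median difference of 0.22 over 10 genes, and 5 of the 10 rose with siRNA-2, where 14.2% of all genes rose. PNPLA3, a lipid droplet lipase and acyltransferase, read -0.38 and -0.32 on the controls, 0.32 under siRNA-1 and 1.54 under siRNA-2. Both knockdown arrays were above the controls, with differences of 0.67 ± 0.07 and 1.89 ± 0.07, the second a 3.7-fold higher level. Its other probe set gave 0.93 and 2.13.

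The last step of triglyceride synthesis is shared by a pair of unrelated acyltransferases, and each was highest with another siRNA. DGAT2 read -0.24 and -0.14 on the controls, 0.14 under siRNA-1 and 1.04 under siRNA-2. DGAT1 read -0.06 and -0.02 on the controls, 0.75 under siRNA-1 and 0.02 under siRNA-2. With the spread taken from the controls alone, DGAT2 was higher on the siRNA-2 array than on the siRNA-1 array by 0.90 ± 0.10 (adjusted p = 0.0445 by limma), whereas DGAT1 was lower there (-0.73 ± 0.08, adjusted p = 0.0446). This sets 1 array against 1 array, and neither call was made after quantile normalization or with each probe set tested. Pooling the spread over groups also made neither call, but that spread contains the gap between the knockdown arrays and could not call it. DGAT1 has 1 probe set, and both of DGAT2 followed the same order of arrays.

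AGPAT2, which makes phosphatidic acid from its monoacyl precursor, read -0.14 and -0.13 on the controls, 0.13 under siRNA-1 and 0.57 under siRNA-2 (0.71 ± 0.07). AGPAT1, of the same activity, read -0.03 and -0.05 on the controls, 0.03 under siRNA-1 and 0.34 under siRNA-2 (0.38 ± 0.07, adjusted p = 0.0449 by limma). Both lay above the controls with each siRNA. LPIN1, a phosphatidate phosphatase that yields diacylglycerol, read 0.04 and -0.04 on the controls, -0.13 under siRNA-1 and 0.56 under siRNA-2 (0.56 ± 0.08). Its siRNA-1 value was below both controls, so its groups overlapped.

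Besides DGAT1, 4 esterification genes were not called with siRNA-2. GPAM, which adds the first acyl group to glycerol phosphate, had a siRNA-2 difference of 0.26 ± 0.09, and LPIN2 one of 0.31 ± 0.07. LPIN3, the only member read by a dim probe set, had 0.44 and 0.03 on the controls, the widest gap between controls of any member, and -0.03 (siRNA-1) and -0.17 (siRNA-2) on the knockdown arrays. MOGAT2, which acylates monoacylglycerol, read -0.15 and -0.01 on the controls, 0.17 under siRNA-1 and 0.01 under siRNA-2. Its other probe set was 1.09 and 1.34 above the controls with siRNA-1 and siRNA-2, so that the reading of this gene depends on the probe set.

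**Figure D2:**
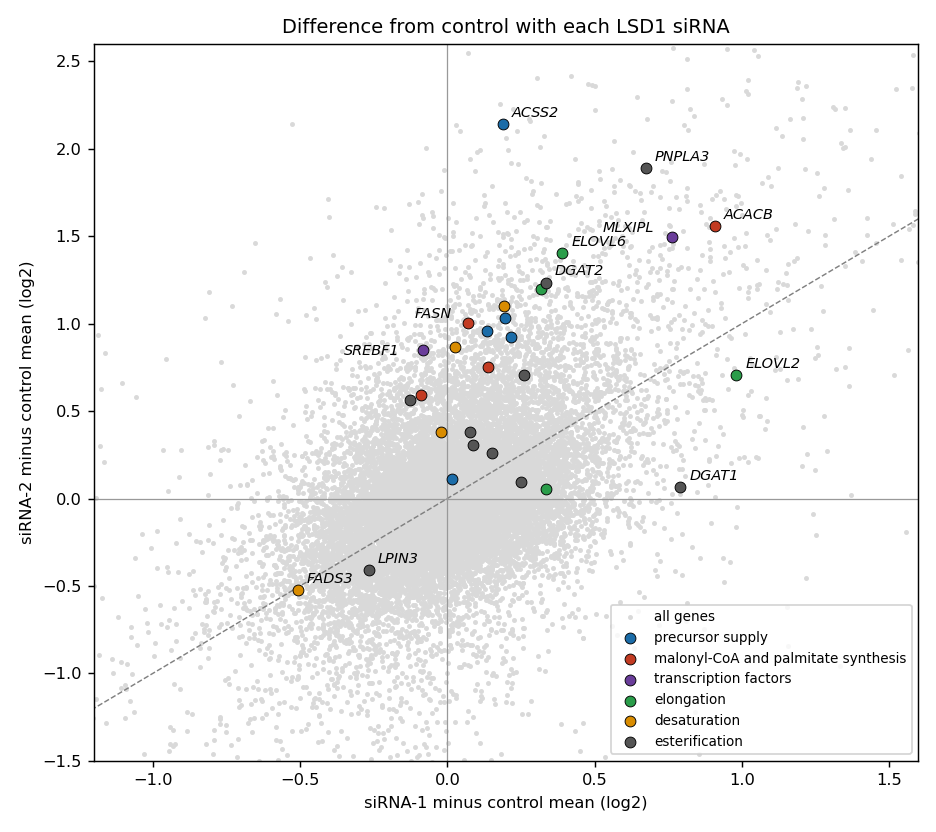
Difference from the control mean with siRNA-1 (x axis) and siRNA-2 (y axis), both log2, for all 19775 genes in grey (those within the axis limits) and for the 29 members coloured by role; the dashed line marks equal differences and both axes share the 2 controls. Most members lie above the line, ELOVL2, ELOVL5, DGAT1 and MOGAT2 lie below it, and FADS3 and LPIN3 lie in the lower left.

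The difference between the siRNAs was tested for each gene. Of the 29 members, 10 read higher on the siRNA-2 array than on the siRNA-1 array and 1 lower, where 4.93% of all genes were higher and 3.33% lower (8.25% in either direction). The 10 were ACSS2, SLC25A1, AACS, FASN, SREBF1, ELOVL6, ELOVL7, FADS2, DGAT2 and PNPLA3. Without any test, the siRNA-2 array lay above the siRNA-1 array for 23 of 29 members, against 47.8% of all genes. The median gap between the knockdown arrays was 0.69 over members and 0.22 over all genes, while the gap between the controls was 0.07 over members and 0.08 over all genes. With the spread pooled over groups, or with each probe set tested on its own, 0 members differed between the siRNAs.

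Members read by over 1 probe set numbered 21, and probe sets did not always follow each other. Of the 65 probe sets, 39 lay above both controls on both knockdown arrays and 6 below, where 21.95% of all 41091 named probe sets lay above and 26.77% below. Among the 27 probe sets that were not the one used for a gene and were not dim, 15 were higher and 2 lower, where 24.82% of all named probe sets that were not dim were higher and 30.01% lower. ACACB is read by 7 probe sets. Those with siRNA-2 differences of 1.56, 1.62 and 0.90 were in the middle brightness class, and so were others with 0.35 and -0.0045. Its dim probe sets gave 0.05 and -0.09, and the latter lay below both controls on both knockdown arrays. Leaving out probe sets of the _s_at and _x_at designs, which can match several transcripts, left 19 measured members.

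**Figure D3:**
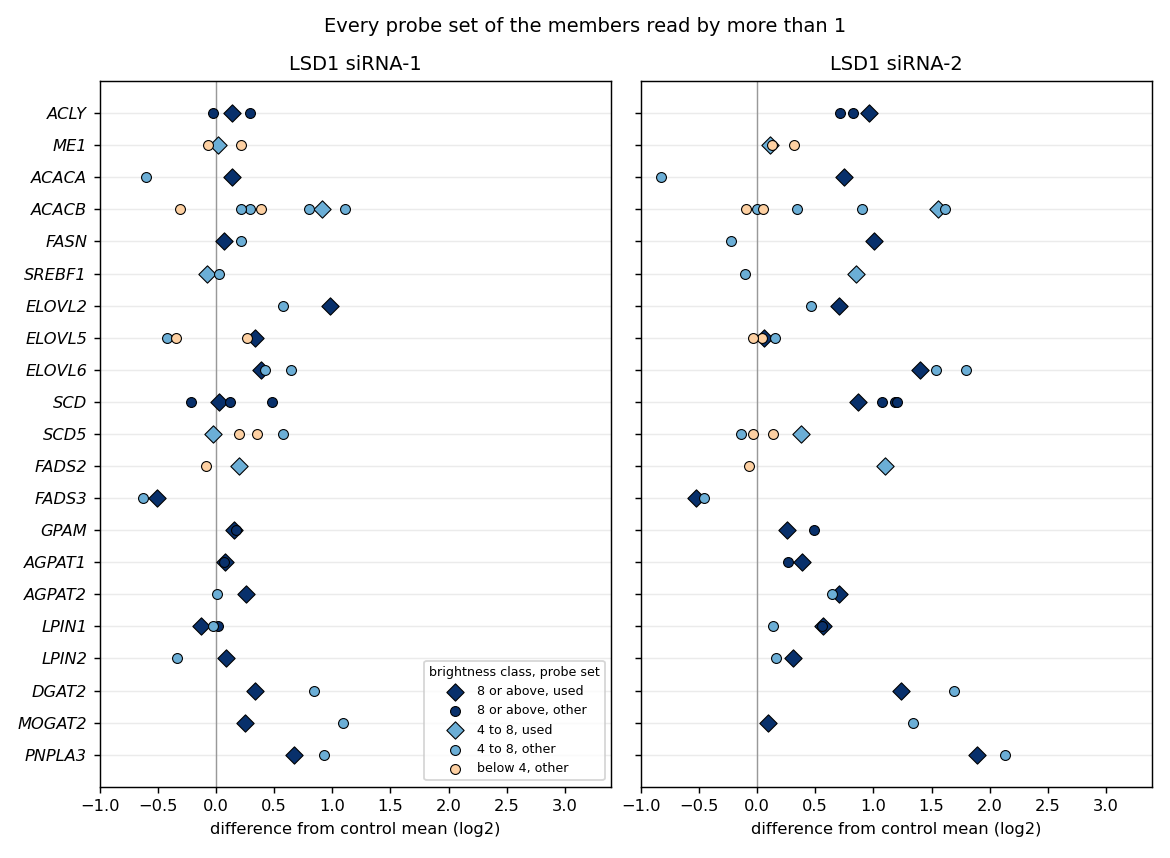
Difference from the control mean (x axis, log2) with siRNA-1 (left) and siRNA-2 (right) for every probe set of the 21 members read by more than 1; diamonds are the probe sets used, circles the others, and darker fill means a brighter class. Probe sets of ACLY, ELOVL6, SCD, FADS3, DGAT2 and PNPLA3 lie together on the same side of 0 with siRNA-2. Those of ACACA, ACACB, FASN, SREBF1, ELOVL5, FADS2 and SCD5 lie on both sides of it.

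Other genes of the pathway, taken from 7 lists, did not share the members' median. Of 97 measured, 21 rose and 13 fell with siRNA-2, where 14.2% of all genes rose and 10.7% fell, and the median difference was 0.10 with siRNA-2 and 0.01 with siRNA-1. In the list of SREBP processing and LXR 3 of 19 rose and 2 fell, with a median of 0.09 with siRNA-2. NFYA, a subunit of the CCAAT box factor NF-Y, fell with siRNA-2, at 0.18 and 0.24 on the controls, -0.18 under siRNA-1 and -0.85 under siRNA-2 (-1.06, adjusted p = 0.0153 by limma). MED15, a Mediator subunit that SREBP contacts, differed by -0.31 (siRNA-1) and -0.32 (siRNA-2) and did not pass.

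Acyl-CoA synthetases, which activate fatty acids for all these steps, had 6 of 12 rise and 1 fall with siRNA-2, and a median of 0.43. For this list and for NADPH supply below, the shares of all genes were 14.2% higher and 10.7% lower. ACSL4, which prefers arachidonate, read -0.49 and -0.46 on the controls, 0.53 under siRNA-1 and 0.46 under siRNA-2 (0.94, adjusted p = 0.0159 by limma). It was thus nearly equal with both siRNAs, as was SLC27A5, a bile acid and very long-chain acyl-CoA synthetase, at -0.56 and -0.65, which did not pass. In NADPH supply 3 of 12 rose and 1 fell, with IDH1 (0.80 with siRNA-1, 0.72 with siRNA-2) and PGD (0.66 and 0.54) both called with siRNA-2.

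With siRNA-2, 14.2% of all genes rose and 10.7% fell, and the counts of the lists below are to be read against these shares. Of the other elongation and desaturation enzymes 2 of 12 rose and 1 fell, which is near the shares of all genes. CYB5A, the cytochrome that passes electrons to desaturases, was 0.84 and 0.65 above control with siRNA-1 and siRNA-2, and DEGS2, a ceramide desaturase, was -0.25 and -0.56, both called with siRNA-2. Among other acyltransferases 4 of 17 rose and 1 fell, with a median of -0.13. GNPAT, of ether lipid synthesis in peroxisomes, rose (0.51 and 1.003), and LPCAT3 had 0.24 and 0.32 and did not pass. In the list of AMPK and insulin signalling 2 of 17 rose and 6 fell; TRIB1, a pseudokinase that lowers lipogenesis in liver, fell with siRNA-2 (-0.61 and -0.92), and AKT2 read 0.47 and 0.24 without passing. Of mitochondrial fatty acid synthesis genes 1 of 8 rose and 1 fell, and HSD17B8 was the riser (0.14 and 0.99), while NDUFAB1 had -0.15 and -0.26.

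**Figure D4:**
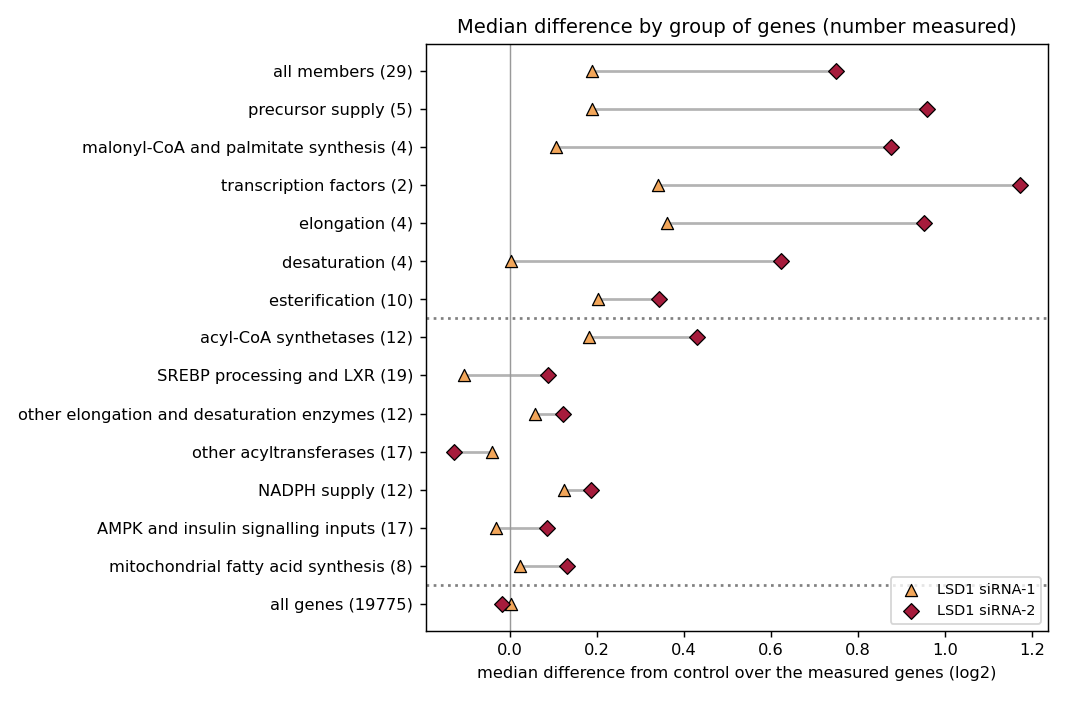
Median difference from control (x axis, log2) over the measured genes of each role group, each other pathway list and all genes, with the number of genes in parentheses, triangles for siRNA-1 and diamonds for siRNA-2. The role groups sit between 0.34 and 1.17 with siRNA-2 and between 0.00 and 0.36 with siRNA-1, and of the other lists the acyl-CoA synthetases lie within the first range, at 0.43 with siRNA-2.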

How the data were processed

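Total RNA of 4 HepG2 samples was read on arrays. The authors deposited RMA output (per the submitters' processing notes), read here as log2; its version, log base and normalization grouping are not stated in the labels. Every one of the 54675 probe sets had a 4-array median of 0 within 5.0e-07, so levels are gone. The rounding step left in the stored numbers gave a brightness class, 8 or above (21.9% of probe sets, called bright), 4 to 8 (37.5%, the middle class) or below 4 (39.6%, called dim). The coarsest step was tried first, so a probe set could be placed in too bright a class by accident. How often this happened was not measured. An array gives no counts, and the number of arrays limits precision.

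Genes were named through the platform annotation, updated by gene identifier (41097 probe sets with 1 symbol, 1801 with several, 11777 unnamed here; 19735 of 19775 genes matched to RefSeq). The 62 control probe sets were left out. Each gene was read by 1 probe set: the brightest class, then no letter suffix before _a_at, _s_at or _x_at, then the lowest identifier. Levels being removed, the class replaced the mean level.

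limma 3.58.1 in R 4.3.3 compared 2 against 2 arrays with no block. A model with 3 groups gave each siRNA and their difference. Tests were two-sided, with Benjamini-Hochberg adjustment over all genes at 0.05; ± is a standard error. Both fits were tested on simulated data. An exact permutation test of 2 against 2 arrays has too few arrangements to reach the threshold, so none was used. All 32 members are accounted for; full values were given for the 3 largest differences of each role and for called members, and for each pathway list the 2 genes with the smallest p are named. The members and lists were chosen with earlier results of these data known. The alternatives were other probe set rules, a filter on dim genes, other scalings, robust moderation, a pooled spread, a replicate block and leaving out each array.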

Additional observations from a re-analysis of the deposited data

Results flagged for a closer look

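For 11 members the siRNA-2 array was set apart from the siRNA-1 array by the limma test of that difference (adjusted p under 0.05 over all genes). Each siRNA was read on 1 array, so the spread comes from the 2 controls alone. After quantile normalization, or with each probe set tested, 0 of these calls were made. The same was found with the spread pooled over groups, but that spread contains the gap being tested, so no gap could pass. ACSS2 differed by 1.95, PNPLA3 by 1.22, ELOVL6 by 1.01, SREBF1 by 0.93, FASN by 0.93, FADS2 by 0.91, DGAT2 by 0.90, ELOVL7 by 0.88, SLC25A1 by 0.84 and AACS by 0.70. DGAT1 was the only one lower with siRNA-2, at -0.73. For KDM1A itself the differences from control were -2.75 (siRNA-1) and -2.37 (siRNA-2). In data outside the gene tests, the 18 hybridization spike-in probe sets differed by 1.28 between knockdown and control arrays. They read -0.69 and -0.61 on the controls, 0.61 with siRNA-1 and 0.65 with siRNA-2, so they do not separate the siRNAs, and their part in the members' values was not tested.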

How the results depend on the processing

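Over both siRNAs, 0 members were called under most settings, and quantile normalization called 1 higher (ACACB). Leaving out the siRNA-1 array leaves siRNA-2 against the same 2 controls, so that setting repeats the siRNA-2 comparison and is no separate check. Its median difference over members was 0.75, the same as with siRNA-2. With the replicate block 0 members were called higher and 0 lower. Same-numbered arrays deviated together with r = 0.037 over genes. The gap between the knockdown arrays also holds the difference between the siRNAs, so this r cannot tell whether the numbers pair the arrays. With siRNA-1, leaving out dim genes and setting array medians to 0 each called some members higher, without the share of all genes for comparison. The 19 higher calls with siRNA-2 became 9 without _s_at and _x_at probe sets, 33 of 65 with each probe set tested, and 0 after quantile normalization or with a pooled spread; the 1 lower call became 0 without those designs, after quantile normalization and with a pooled spread. Between siRNAs, the 10 higher calls became 4 without those designs, 16 without dim genes, 17 with array medians at 0, and 0 with each probe set tested, quantile normalization or a pooled spread, and under all of these but the dim filter and the median setting the 1 lower call became 0. Shares of all genes called under these settings are not given here. The pooled spread contains the gap between the siRNAs, so it could call no difference between them. The 21 members above both controls became 10 of 19 without those designs and 39 probe sets, with 21 to 27 on leaving out an array. The 2 below became 6 probe sets, 1 without dim genes, and 2 to 4. On leaving out an array, the median ranged from 0.19 to 0.75 over members, 0.19 to 0.96 for precursor supply, 0.36 to 0.95 for elongation, 0.00 to 0.62 for desaturation and 0.20 to 0.34 for esterification. Without those designs, precursor supply was left with 1 gene, ME1, read by a dim probe set (0.12). Desaturation was left with 3 genes and a median of -0.076, as SCD dropped out and FADS2 was read by its dim probe set. The mean of probe sets gave 0.34 for esterification. Single members that reversed were ACACA (-0.14 as the mean of probe sets), FADS2 (-0.076 without those designs) and, without the siRNA-2 array, 4 whose values on leaving out an array ran from -0.090 to 0.595 (MID1IP1), -0.0809 to 0.852 (SREBF1), -0.0225 to 0.379 (SCD5) and -0.126 to 0.565 (LPIN1). The causes were not tested, and levels near background cannot be told from these centred values.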
